A study of Homo sapiens with 6 samples.

Results

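The genes described here copy the DNA of a dividing cell: 59 genes of origin licensing, origin firing, the replication fork, nucleotide supply, replication-coupled chromatin and the E2F transcription factors. They were picked by symbol from the 60419 genes of the deposited count table, which held all 59, each under 1 Ensembl identifier. The RNA came from 12Z, an immortalised human line grown from endometriosis, in which cells of endometrial type live outside the uterus. These cells, of wild type genotype per the labels, grew in DMEM/F12 with 10% charcoal-stripped serum. The Myrrh group received 100 µg/mL of an extract of myrrh, a resin of Commiphora, dissolved in DMSO, for 12 h, and the DMSO group received that solvent without extract, with 3 libraries in each. Whether the libraries came from separate cultures is not in the labels, and the p-values below therefore rest on a spread that may be technical. 12Z is 1 cell line, and it is known to have been immortalised with the large T antigen of a simian virus, a protein that binds RB-family proteins. All groups share that background.

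Replication is prepared in G1, when the origin recognition complex (ORC), CDC6 and CDT1 load the ring-shaped MCM helicase onto origins, a step called licensing. The kinases CDC7 and CDK2 then convert loaded rings into active forks by recruiting CDC45 and GINS. Many of the genes involved are transcribed together before S phase by activating E2F factors, which RB-family proteins hold in check, and are later repressed by the atypical factors E2F7 and E2F8.

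Short stretches before the RefSeq start of several members show the kind of E2F-type motif that these genes are known for, and were chosen from the members that hold one, 3 that fell and 3 that rose. The motif was searched as TTTCCCGC, TTTCGCGC, TTTGCCGC or TTTGGCGC on both strands in the 250 bases before each RefSeq gene start (GRCh38.p14). Stretches run 5′ to 3′ on the gene's strand, and capitals mark the motif, here read on the opposite strand as GCGGGAAA or GCGCCAAA. PCNA, POLE and UHRF1 fell in Myrrh, and ORC3, RFC3 and E2F3 rose, E2F3 not in every scaling.
PCNA, chr20:5126663-5126692, minus strand: cagcgtcagggGCGGGAAAaggcgtgcgtt
POLE, chr12:132687343-132687371, minus strand: tgggtgggagcGCGCCAAAtttctcccct
UHRF1, chr19:4909476-4909500, plus strand: gccgagttttcGCGGGAAAaaaatc
ORC3, chr6:87590112-87590134, plus strand: cgcgagggcgcGCGGGAAAtccc
RFC3, chr13:33818083-33818112, plus strand: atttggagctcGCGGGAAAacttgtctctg
E2F3, chr6:20401766-20401878, plus strand: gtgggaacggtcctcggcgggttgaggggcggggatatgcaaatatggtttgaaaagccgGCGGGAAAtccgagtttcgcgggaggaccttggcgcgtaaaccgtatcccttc

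RefSeq windows were found for 50 of the 59 members, and 20 of these (40.0%) held an E2F-type motif, against 5.6% of the 11438 tested genes with a window and 2.8% of all 35116 windows. By direction, the motif was present in 12 of 23 members that fell, 4 of 19 that rose and 4 of 8 that were not called. In full these classes hold 30, 20 and 9 members. The members without a window thus lie mostly among those that fell, E2F8, CCNE2 and CDK2 included. The same letters, GCGGGAAA, stood before the RefSeq starts of PCNA and UHRF1, which fell, and of ORC3, RFC3 and E2F3, which rose. In GENCODE 29, where several of these genes begin earlier, the motifs of POLE, UHRF1, ORC3 and RFC3 lie inside the gene and those of PCNA and E2F3 lie before it. The sequence CCAAT was found in 29 of the 50 members (58.0%) against 40.8% of tested genes, and a cell cycle homology region (TTTGAA or TTCGAA) in 4 (8.0%) against 13.4%. These are matches of letters. Spellings other than those searched were not counted, so members without a match, whether they fell or rose, cannot be said to lack an E2F site. The share among members describes a set that was chosen for its function.

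The libraries held 22454783 to 27588151 estimated counts. All 59 members passed the filter on low counts, and their lowest estimated count in any library was 29. Keratins KRT8, KRT18 and KRT19 were well expressed, but EPCAM (1.12 TPM in DMSO) and CDH1 (0.133 TPM), markers of epithelium, were near 0, while the mesenchymal marker VIM stood at 2048 TPM. Summed over 4 endothelial markers, levels were 0.37 to 0.48 TPM in DMSO and 0.06 to 0.09 in Myrrh, with CDH5 at 0. Of 5 leukocyte markers CD3E and MS4A1 were at 0, and the sum went from between 30.2 and 33.8 TPM to between 53.6 and 76.8, most of it CD68, a lysosomal protein gene, which went from 29.2 to 65.3 TPM. The leukocyte markers CD14 (2.53 to 0.443 TPM) and PTPRC (0.17 to 0.07 TPM) fell. PTPRC had only 0 to 19 counts in each library, and its groups overlapped in TPM. The 6 epithelial markers summed to 1574 to 1605 TPM in DMSO and 1162 to 1266 in Myrrh, and 6 stromal markers to 3761 to 3840 and 1884 to 2015. Within these sums EPCAM (1.12 to 2.54 TPM), KRT7 (5.84 to 8.91 TPM) and CDH2 (57.35 to 72.29 TPM) rose. The other tested markers of both lists fell, COL1A1 from 1444 to 207.7 TPM. Mitochondrially encoded genes took 14.0% to 14.7% of counts in DMSO and 6.84% to 8.45% in Myrrh. The part of these shifts in the results below was not tested.

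In the Myrrh libraries, 30 of the 59 members fell and 20 rose, and 9 were not called (edgeR's quasi-likelihood test, Benjamini-Hochberg adjusted p under 0.05 over 16395 genes). All 50 called members had groups that did not overlap, so that trait of a single gene adds nothing to its call. Of all genes tested, 40.1% lay apart upward and 40.2% downward. Those that fell at least 2-fold were the clamp gene PCNA, the ligase gene LIG1, the polymerase gene POLE, RRM2 and TYMS of nucleotide supply, UHRF1, and CCNE2, CDK2, E2F2 and E2F8. Those that rose at least 2-fold were the licensing genes CDC6 and ORC3 and the repressor gene E2F7. These 13 genes were 10 with limma on log2(TPM + 1), where ORC3 (0.97), CDK2 (-0.91) and E2F2 (-0.74) lay under 2-fold. They were 17 with library totals or upper-quartile factors, which added MCM3, CDC7, DUT and CCNE1. E2F2 also lay under 2-fold with no filter on low counts (-0.97) and with the replicate number as a block (-0.999). It did so too without DMSO replicates 1 or 2 or Myrrh replicates 1 or 2. CDK2 lay under 2-fold with no filter (-0.98) and without Myrrh replicate 2 (-0.96). Over all genes tested 39.1% were lower and 39.3% higher, 78.4% in all, against 50.8% and 33.9% of the members, and the median log2 fold change was -0.02 over all genes and -0.14 over the members. Under library totals in place of TMM factors the member counts were 35 lower and 13 higher, and under upper-quartile factors 36 and 13. The background moved the same way, to 7479 lower and 5378 higher of 16395 genes with library totals. With upper-quartile factors it was 7389 and 5521, against 6418 and 6436 with TMM factors. A change of at least 2-fold was reached by 10 members downward (16.9%, against 18.0% of all genes) and 3 upward (5.1%, against 11.3%). The shares changed at least 2-fold lie near or below the background, so that count is no result about the members. In bulk RNA, fewer cells in S phase and less RNA per cell cannot be told apart.

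**Figure D1:**
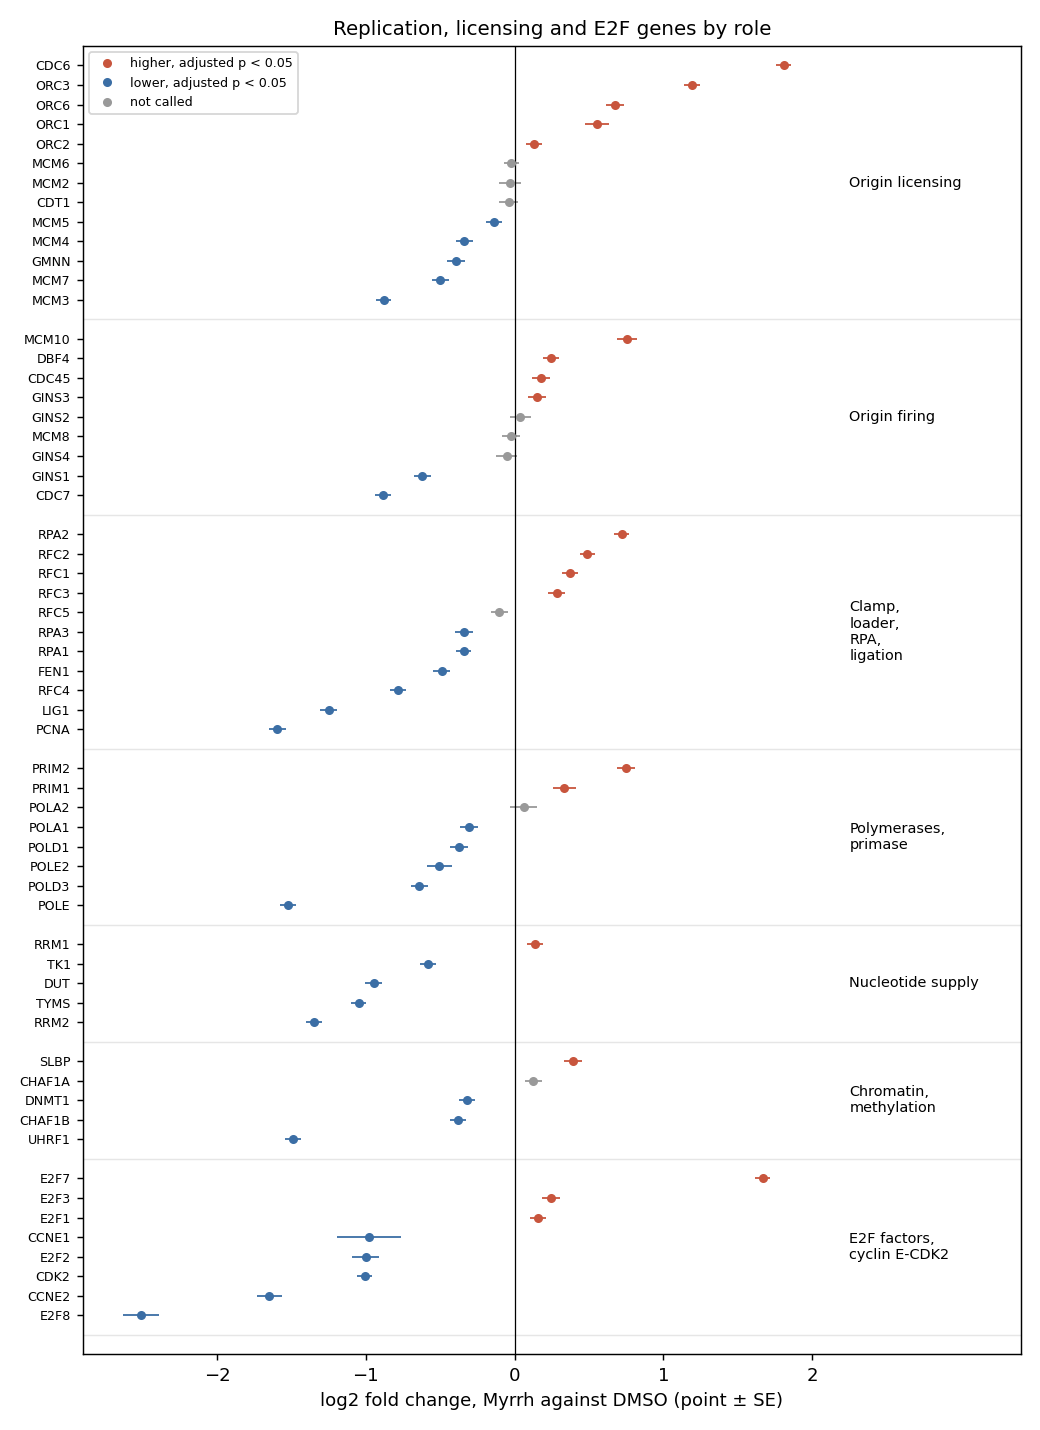
Log2 fold change of each of the 59 members, Myrrh against DMSO (x axis; points with SE bars), grouped by role (y axis) and coloured by call at an adjusted p of 0.05. CDC6 (1.81) and E2F7 (1.67) lie farthest to the right, and E2F8 (-2.51) and CCNE2 (-1.65) farthest to the left; genes that rose and genes that fell occur in each of the 7 role groups, although RRM1, which alone rose in nucleotide supply, stands at -0.01 with library totals.

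Licensing genes split by complex. Of 13, 5 rose (38.5%), 5 fell (38.5%) and 3 were not called, with a median of -0.03. Over all genes tested 39.3% rose and 39.1% fell. The licensing counts lie near those shares and are no result about licensing. CDC6, the ATPase that joins ORC at the origin to load MCM, stood at 51.6, 54.0 and 55.2 CPM (counts scaled to library size with TMM factors) in the DMSO libraries and at 189.7, 187 and 187 in Myrrh. All Myrrh libraries exceeded all DMSO libraries more than 3-fold, and the log2 fold change was 1.81 ± 0.05 (SE; adjusted p = 3.94e-21, edgeR). Per length, CDC6 went from 31.7 ± 1.92 to 113 ± 7.14 TPM (mean ± SD, n = 3), from rank 35 among the 59 members to rank 8. In GRCh38, CDC6 lies on chromosome 17 at 40287633 to 40304657, with 12 exons in its longest transcript in GENCODE 29.

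The ORC subunits, which mark origins for CDC6, were all higher. ORC3 had 45.7, 47.0 and 45.5 CPM in DMSO and 103, 112 and 101 in Myrrh, a log2 fold change of 1.19 ± 0.05 (adjusted p = 1.2e-16, edgeR). ORC6 (0.67 ± 0.06) and ORC1 (0.55 ± 0.08), the subunit with its own ATPase activity, rose less, and ORC2 rose by 0.13 ± 0.05, a call that did not hold in most alternative settings. It stood at -0.01 with library totals, at 0.00 with upper-quartile factors and at 0.03 with a filter of 5 CPM, it was lost with the DESeq2 Wald test (adjusted p = 0.0621), and its adjusted p by edgeR was 0.0501 to 0.124 without each of DMSO replicates 1, 2 and 3 and Myrrh replicates 1 and 2. The other subunits, ORC4 (1.04 ± 0.06) and ORC5 (1.67 ± 0.07), come from a list of pathway partners outside the 59 and rose as well. ORC5 went from 12.2 ± 0.153 to 40.8 ± 3.29 TPM. All 6 subunits thus passed the test in 1 direction, ORC2 with the exceptions given, where 39.3% of all genes tested rose. Their median log2 fold change was 0.86.

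The MCM helicase, whose 6 related subunits MCM2 to MCM7 form 1 ring, did not follow ORC. MCM3 had 236, 243 and 251 CPM in DMSO and 132, 131 and 134 in Myrrh, the lowest log2 fold change of the licensing genes at -0.88 ± 0.05 (adjusted p = 2.19e-14, edgeR), and the groups lay far apart. MCM7 (-0.50 ± 0.06), MCM4 (-0.34 ± 0.06) and MCM5 (-0.14 ± 0.05) fell too. The MCM5 call was lost on the TPM scales (-0.04), without a filter on low counts (-0.11), and without DMSO replicates 1 or 2 or Myrrh replicates 1 or 2 (-0.13, -0.14, -0.13 and -0.09). The call of MCM4 was lost in 1 setting, limma on log2(TPM + 1) with no filter on low genes (-0.21). MCM2 (-0.03 ± 0.07) and MCM6 (-0.02 ± 0.05) were not called, although upper-quartile factors called both lower (-0.16 and -0.15), and library totals (-0.17) and a filter of 5 CPM (-0.13) called MCM6 lower. In DMSO the 6 subunits ranged from 53.5 ± 4.59 TPM (MCM6) to 170 ± 3.6 TPM (MCM7), and in Myrrh from 51.7 ± 2.69 to 125 ± 4.98 TPM (MCM4). Whether strand was used in counting is not known here, and MCM7 and MCM2 share exon bases with genes on the opposite strand, so their counts are less certain.

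CDT1, the partner of CDC6 in loading MCM, had overlapping groups, at 36.1 to 38.0 CPM in DMSO and 34.5 to 38.4 in Myrrh (-0.04 ± 0.06, not called). It was called lower with library totals (-0.18), with upper-quartile factors (-0.17) and with a filter of 5 CPM (-0.14). GMNN, geminin, the protein that inhibits CDT1 after S phase has begun, fell by 0.39 ± 0.06, from 46.6 ± 1.55 to 35.5 ± 2.22 CPM. Within each library, the ratio of CDT1 to GMNN in TPM was 0.379, 0.332 and 0.304 in DMSO and 0.459, 0.386 and 0.475 in Myrrh. The ratio of CDC6 to ORC1 was 3.08, 3.14 and 3.41 in DMSO and 7.34, 8.67 and 6.89 in Myrrh. Neither pair of groups overlapped, but with 3 against 3 libraries a two-sided exact permutation test cannot go below p = 0.1, the value of both, and adjusted over 6 ratios it was 0.12.

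**Figure D2:**
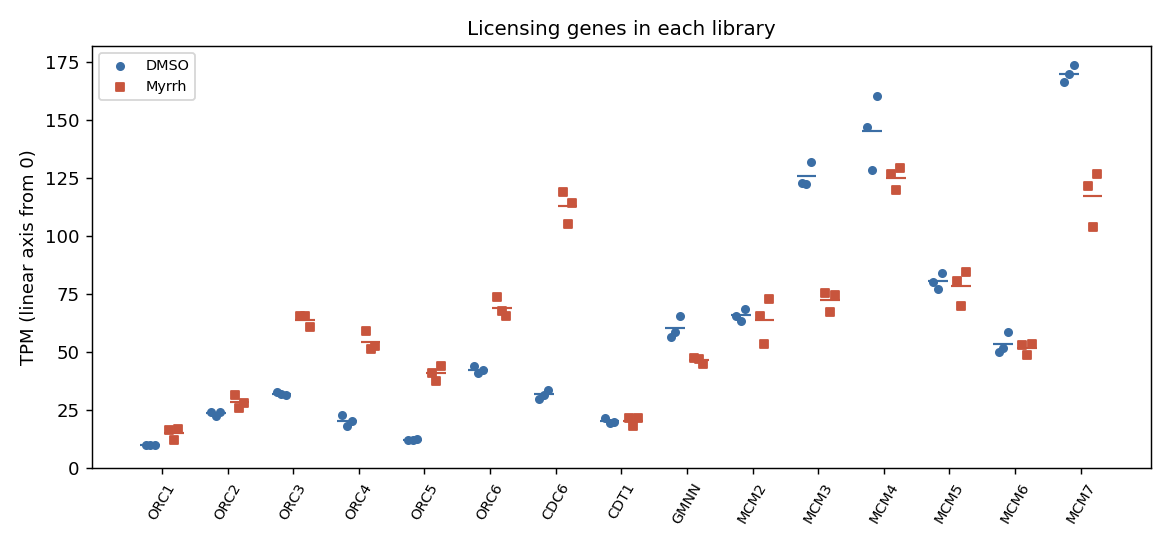
TPM (y axis, linear from 0) of ORC subunits, CDC6, CDT1, GMNN and MCM subunits in each of 3 DMSO (circles) and 3 Myrrh (squares) libraries, with lines at the group means. CDC6 rises from 31.7 to 113 TPM and ORC5 from 12.2 to 40.8, whereas MCM3 falls from 126 to 72.4 and the groups of CDT1, MCM2, MCM4, MCM5 and MCM6 overlap on this scale.

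Of 9 origin firing genes, 4 rose (44.4%, against 39.3% of all genes tested), 2 fell (22.2%, against 39.1%) and 3 were not called. Their median was 0.04. It was -0.10 with library totals, -0.09 with upper-quartile factors and -0.07 with a filter of 5 CPM. CDC7, the kinase that activates loaded MCM, had 67.4, 65.7 and 67.4 CPM in DMSO and 37.2, 35.4 and 35.9 in Myrrh (-0.88 ± 0.06, adjusted p = 8.72e-14, edgeR). Its regulatory subunit DBF4 moved the other way, by 0.24 ± 0.05, from 52.6 ± 1.44 to 62.2 ± 0.195 CPM, and that call was lost with library totals (0.10) and upper-quartile factors (0.12). The TPM ratio of CDC7 to DBF4 was 0.851, 0.798 and 0.852 in DMSO and 0.363, 0.362 and 0.341 in Myrrh (exact permutation p = 0.1, the smallest possible). The alternative subunit DBF4B, a partner gene, fell by 1.01 ± 0.06.

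MCM10, which helps the assembled helicase start unwinding, had 21.4, 21.4 and 23.7 CPM in DMSO and 36.6, 35.7 and 40.0 in Myrrh. Its log2 fold change of 0.75 ± 0.07 (adjusted p = 1.49e-10, edgeR) was the highest of the firing genes, with no overlap between groups. CDC45, a core part of the moving helicase, rose by 0.18 ± 0.06, a call that was lost with library totals, with upper-quartile factors, with a filter of 5 CPM and on all TPM scales. The GINS complex, another part of that helicase, was uneven. GINS1 fell by 0.62 ± 0.06, GINS3 rose by 0.15 ± 0.06, and GINS2 (0.04 ± 0.07) and GINS4 (-0.05 ± 0.07) were not called. The GINS3 call was lost with library totals (0.01), with upper-quartile factors (0.02), with a filter of 5 CPM (0.04), with the DESeq2 Wald test (adjusted p = 0.0735), and without DMSO replicates 1 or 2 or Myrrh replicate 2 (0.11, 0.14 and 0.12), while library totals (-0.19), upper-quartile factors (-0.18) and a filter of 5 CPM (-0.16) called GINS4 lower. MCM8, a relative of the MCM subunits with a role in recombination, was not called either (-0.02 ± 0.06), except as lower with library totals (-0.17) and upper-quartile factors (-0.15).

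At the fork, 6 of 11 genes fell (54.5%, against 39.1% of all genes tested), 4 rose (36.4%, against 39.3%) and 1 was not called. Their median was -0.34. PCNA, the sliding clamp that tethers polymerases to DNA, had 336, 342 and 342 CPM in DMSO and 109.5, 121 and 107 in Myrrh. Its log2 fold change was -1.59 ± 0.06 (adjusted p = 5.75e-19, edgeR), and the highest Myrrh library was well under the lowest DMSO library. PCNA had the highest level per length of all members in DMSO, 394 ± 8.93 TPM, and stood at 133.5 ± 4.28 TPM in Myrrh, behind SLBP at 153 ± 10.9. In GRCh38, PCNA lies on chromosome 20 at 5114953 to 5126626, with 7 exons. LIG1, the ligase that seals Okazaki fragments, had 103, 102 and 100.1 CPM in DMSO and 44.6, 38.7 and 44.8 in Myrrh (-1.25 ± 0.06, adjusted p = 1.45e-16, edgeR). FEN1, the nuclease that trims those fragments before ligation, fell by 0.49 ± 0.06. FEN1 shares exon bases with FADS2 on the same strand and TMEM258 on the opposite strand, both of which rose.

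The clamp loader RFC, made of 5 subunits, and the single-strand binding protein RPA, made of 3, were divided. RFC4 fell by 0.78 ± 0.05, while RFC2 (0.49 ± 0.05), RFC1 (0.37 ± 0.05) and RFC3 (0.28 ± 0.06) rose, and RFC5 (-0.10 ± 0.06) was not called, except as lower with library totals, upper-quartile factors or a filter of 5 CPM. RPA2 had 63.1, 61.8 and 64.6 CPM in DMSO and 104, 103 and 105 in Myrrh, the highest log2 fold change of the fork genes at 0.72 ± 0.05 (adjusted p = 6.87e-13, edgeR). Its groups did not overlap. Its partners RPA1 and RPA3 fell by 0.34 ± 0.05 and 0.34 ± 0.06. Of the PCNA handling genes in the partner list, ATAD5, which helps unload the clamp, fell by 1.18 ± 0.07.

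Polymerase genes fell in 5 of 8 cases (62.5%, against 39.1% of all genes tested) and rose in 2 (25%, against 39.3%). Of the 8, 1 was not called, and the median was -0.34. POLE, the catalytic subunit of polymerase epsilon on the leading strand, had 153, 162 and 148 CPM in DMSO and 55.9, 50.9 and 53.8 in Myrrh. That is a log2 fold change of -1.52 ± 0.05 (adjusted p = 3.7e-19, edgeR), with groups far apart. POLE lies on chromosome 12 at 132623753 to 132687365 in GRCh38, with 49 exons. The second subunit of polymerase epsilon, POLE2, fell by 0.51 ± 0.08, whereas the small histone-fold subunit POLE3, a partner gene, rose by 0.53 ± 0.05. Polymerase delta, which makes the lagging strand, was lower in its catalytic subunit POLD1 (-0.37 ± 0.06) and in POLD3 (-0.64 ± 0.06), and POLD2, a partner gene, rose by 0.60 ± 0.06.

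Polymerase alpha and primase, which begin each strand with a short primer, split between both enzymes. The catalytic subunit POLA1 fell by 0.30 ± 0.06, and POLA2 was not called (0.06 ± 0.09). POLA2 shares 2012 exon bases with another gene on the same strand, so its value is less certain. PRIM2, the large primase subunit, had 27.2, 29.7 and 28.8 CPM in DMSO and 47.1, 50.7 and 46.3 in Myrrh (0.75 ± 0.06, adjusted p = 2.8e-11, edgeR), with no overlap. PRIM1, the catalytic primase subunit, rose by 0.33 ± 0.08. PRIM1 shares exon bases with NACA, a gene with far more counts on the same strand, so its value is uncertain.

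**Figure D3:**
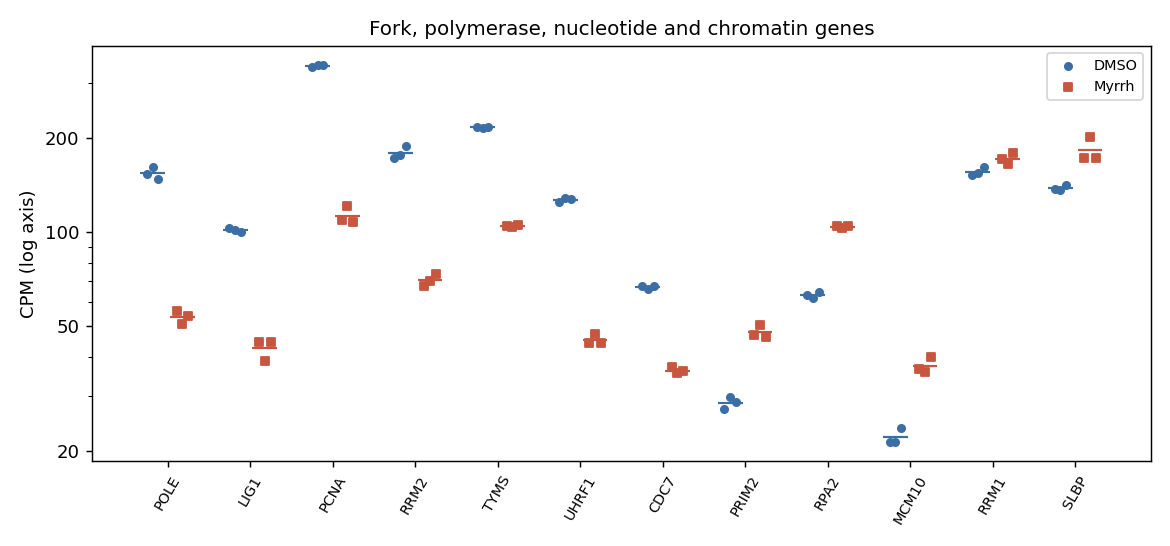
CPM (y axis, log scale) of 12 fork, polymerase, nucleotide, chromatin and firing genes in each DMSO (circles) and Myrrh (squares) library, with lines at the group means. POLE, LIG1, PCNA, RRM2, TYMS, UHRF1 and CDC7 are lower in all Myrrh libraries, and PRIM2, RPA2, MCM10, RRM1 and SLBP are higher.

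Nucleotide supply genes fell in 4 of 5 cases (80%, against 39.1% of all genes tested) and 1 rose (20%, against 39.3%). Their median was -0.95. RRM2, the small subunit of ribonucleotide reductase that is made in S phase, had 172, 176 and 188 CPM in DMSO and 67.3, 69.6 and 73.5 in Myrrh (-1.35 ± 0.05, adjusted p = 5.37e-18, edgeR). The groups were separated by more than the whole Myrrh level. RRM1, the large subunit of the same enzyme, had 153, 154 and 162 CPM in DMSO and 171, 164.8 and 179 in Myrrh, a rise of 0.14 ± 0.05 (adjusted p = 0.0204, edgeR) whose groups lay close together. That call was lost with upper-quartile factors (0.01), on the TPM scales (0.14), with a filter of 5 CPM (0.03) and without DMSO replicates 1 or 2 (0.12 in each), and the value was -0.01 with library totals. The TPM ratio of RRM2 to RRM1 was 1.34, 1.34 and 1.36 in DMSO and 0.555, 0.508 and 0.567 in Myrrh (exact permutation p = 0.1, the smallest possible).

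TYMS, thymidylate synthase, which makes dTMP, had 217, 216 and 217 CPM in DMSO and 104, 104 and 106 in Myrrh (-1.05 ± 0.05, adjusted p = 3.08e-16, edgeR). TYMS shares 967 exon bases with ENOSF1 on the opposite strand, which had fewer counts and was at -1.22. DUT, the dUTPase that keeps uracil out of DNA, fell by 0.95 ± 0.06 and TK1, the thymidine salvage kinase of S phase, by 0.58 ± 0.05. Summed over the 5 genes, levels went from 846 ± 16.1 to 496 ± 13.6 TPM, whereas the 13 licensing genes summed to 861 ± 39 and 865 ± 52.7 TPM. As a share of all counts, which is not per length, nucleotide supply went from 0.0885% ± 0.00153 to 0.0497% ± 0.000818 and licensing from 0.155% ± 0.00245 to 0.137% ± 0.00719, with the licensing share below its DMSO value by more than the spread. Over all 59 members the sum went from 3826 ± 104 to 3045 ± 120 TPM (SD, n = 3).

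Of 5 genes of replication-coupled chromatin, 3 fell (60%, against 39.1% of all genes tested), 1 rose (20%, against 39.3%) and 1 was not called. Their median was -0.32. UHRF1, which reads hemimethylated DNA behind the fork and recruits DNMT1, had 125, 129 and 127 CPM in DMSO and 44.4, 47.2 and 44.3 in Myrrh. Its log2 fold change was -1.49 ± 0.05 (adjusted p = 3.96e-19, edgeR), with wide separation of the groups. DNMT1, the maintenance methyltransferase, fell by 0.32 ± 0.06. The chromatin assembly factor subunit CHAF1B fell by 0.38 ± 0.06, and CHAF1A, its large partner, narrowly missed the threshold (0.12 ± 0.06, adjusted p = 0.0504 by edgeR), with all Myrrh libraries above all DMSO libraries. CHAF1A was called higher without Myrrh replicate 1 (0.16), without Myrrh replicate 2 (0.14) and without a filter on low counts (0.16), and with the replicate number as a block (adjusted p = 0.0463, edgeR), and it stood at -0.02 with library totals. SLBP, which binds the stem-loop of replicative histone mRNAs, had 138, 137 and 142 CPM in DMSO and 172, 202 and 173 in Myrrh (0.39 ± 0.06, adjusted p = 1.23e-06, edgeR). Myrrh replicate 2 was the highest, and the groups did not overlap.

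The E2F and cyclin E group had the widest range. Of 8 genes, 5 fell (62.5%, against 39.1% of all genes tested) and 3 rose (37.5%, against 39.3%), with a median of -0.99. The 2 atypical repressors moved in opposite directions. E2F7 had 38.2, 37.7 and 36.5 CPM in DMSO and 120.5, 120.0 and 116 in Myrrh (1.67 ± 0.05, adjusted p = 5.36e-20, edgeR). E2F8 had 14.0, 14.6 and 15.5 CPM in DMSO and 2.77, 2.82 and 2.11 in Myrrh, the lowest log2 fold change of all members (-2.51 ± 0.12, adjusted p = 2.67e-16, edgeR). Neither gene had overlapping groups. Per length, E2F7 stood at 9.01 ± 0.37 and E2F8 at 6.75 ± 1.08 TPM in DMSO, and at 29.4 ± 2.12 and 1.01 ± 0.155 TPM in Myrrh. In GRCh38, E2F7 lies on chromosome 12 at 77021247 to 77065580 and E2F8 on chromosome 11 at 19224063 to 19241620, each with 13 exons.

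Among the activating factors, E2F2 had 17.9, 18.9 and 16.3 CPM in DMSO and 8.51, 8.83 and 9.21 in Myrrh (-1.0 ± 0.09, adjusted p = 9.69e-11, edgeR). E2F1 (0.16 ± 0.05) and E2F3 (0.24 ± 0.06) were higher, but with library totals, where they stood at 0.01 and 0.10, and with upper-quartile factors, at 0.03 and 0.12, neither was called. The E2F1 call was also lost without DMSO replicate 2 (0.14), with a filter of 5 CPM (0.05) and with limma on log2(TPM + 1) with no filter on low genes (0.19). The order of E2F levels in DMSO was E2F1 (32.6 ± 1.23 TPM), E2F3 (10.8 ± 0.577), E2F7, E2F8 and E2F2 (4.80 ± 0.225). In Myrrh E2F7 was second to E2F1 (37.3 ± 2.32), ahead of E2F3 (13.2 ± 0.483), with E2F2 (2.46 ± 0.138) and E2F8 last.

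The E cyclins, which activate CDK2 for S phase entry, were both lower. CCNE2 had 22.9, 23.9 and 24.3 CPM in DMSO and 8.18, 7.26 and 7.23 in Myrrh (-1.65 ± 0.08, adjusted p = 1.07e-15, edgeR). CCNE2 shares 1629 exon bases with INTS8 on the opposite strand, which had more counts and was not called (-0.09). CCNE1 fell by 0.98 ± 0.21, but from a low level of 2.93 ± 0.651 to 1.49 ± 0.165 CPM. CDK2, their kinase, had 140.3, 141 and 138 CPM in DMSO and 73.0, 64.8 and 70.7 in Myrrh (-1.01 ± 0.05, adjusted p = 1.1e-15, edgeR), with groups far apart. The TPM ratio of CDK2 to CCNE2 was 7.63 ± 0.0897 in DMSO and 12.3 ± 1.19 in Myrrh, whereas that of CDK2 to CCNE1 overlapped between groups, at 34.4 to 64.6 and 38.3 to 51.2 (exact permutation p = 1).

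**Figure D4:**
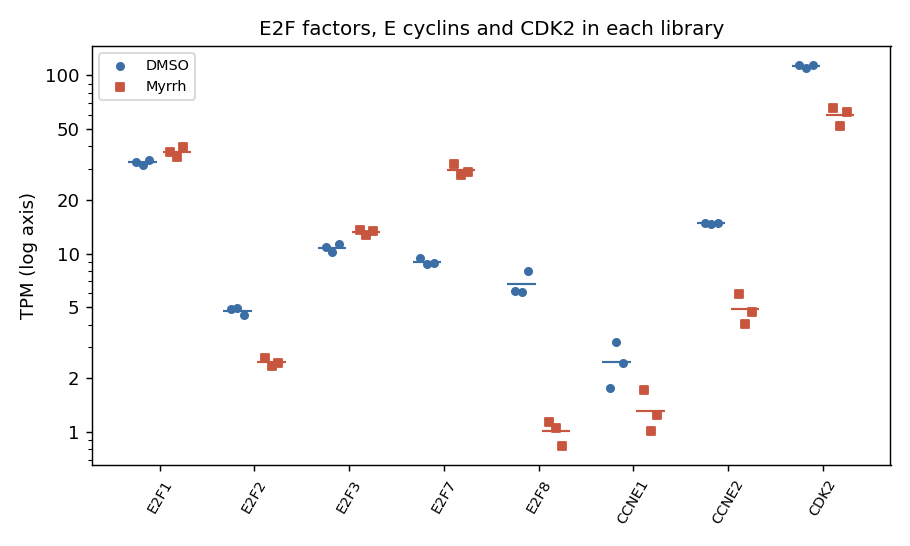
TPM (y axis, log scale) of E2F factors, E cyclins and CDK2 in each DMSO (circles) and Myrrh (squares) library, with lines at the group means. E2F7 rises from 9.01 to 29.4 TPM and E2F8 falls from 6.75 to 1.01 TPM, and E2F2, CCNE1, CCNE2 and CDK2 are lower in all Myrrh libraries.

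Other genes of the same processes, 61 partners listed by role, fell in 30 cases and rose in 22, with a median of -0.11. That is 49.2% lower and 36.1% higher, against 39.1% and 39.3% of all genes tested. Of 11 licensing and firing partners 4 rose (36.4%) and 7 fell (63.6%). Apart from the ORC subunits and DBF4B, given above, DONSON, a replisome factor, fell by 0.76 ± 0.05. Of 13 fork partners 4 rose (30.8%) and 7 fell (53.8%). TOP2A, the topoisomerase that untangles sister DNA, fell by 1.54 ± 0.06, while TOP1, which relaxes DNA ahead of forks, rose by 0.70 ± 0.05. CHTF8, a clamp loader accessory gene, was at 0.66 ± 0.16 and was not called on log2(TPM + 1) (0.15). Of 4 polymerase partners 2 rose (50%) and 1 fell (25%), POLD4 by 0.52 ± 0.12.

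Among 8 nucleotide partners 3 rose (37.5%) and 4 fell (50%), against 39.3% and 39.1% of all genes tested. SAMHD1, which breaks down dNTPs, fell by 1.14 ± 0.06 and SHMT1, a folate enzyme, by 0.83 ± 0.05, while DCTD (0.45 ± 0.06) and RRM2B (0.28 ± 0.06), an alternative small subunit of ribonucleotide reductase, rose. Of 8 chromatin partners 2 rose (25%) and 5 fell (62.5%). HELLS, a remodeller linked to DNA methylation, fell by 1.59 ± 0.05 and the histone chaperone NASP by 1.15 ± 0.05, whereas the histone chaperone ASF1A rose by 0.63 ± 0.07 and SSRP1, of the FACT complex, by 0.24 ± 0.06. Of 17 regulators of E2F activity and S phase 7 rose (41.2%) and 6 fell (35.3%), near the shares of all genes tested. FBXO5, an inhibitor of the anaphase-promoting complex, fell by 1.63 ± 0.06 and SKP2, of a ubiquitin ligase for S phase entry, by 1.51 ± 0.05. The repressor E2F6 rose by 0.83 ± 0.07 and the phosphatase gene CDC25A by 0.81 ± 0.07. On log2(TPM + 1), 3 partners were called in the opposite direction, RNASEH2C (0.49 against -0.40 from counts), TFDP2 (0.65 against -0.38) and RBBP4 (0.14 against -0.16).

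Calls were also counted by level. Ordered by mean TPM over all libraries, 15 of the highest 20 members fell and 5 rose (median -0.42), against 9 and 6 of the lowest 20 (median -0.05). Of the middle 19, 6 fell and 9 rose (median 0.125), so the medians did not run in order of level. Of the 1657 tested genes within the TPM range of those highest 20, 33.9% fell and 50.5% rose. For the 3049 within the range of the middle 19 it was 33.4% and 52.5%. For the 7549 within the range of the lowest 20 it was 39.1% and 40.2%. Across the 59 members the log2 fold change correlated with log2 TPM in DMSO at r = -0.22, with the span of the gene at r = 0.23 and with the number of exons at r = -0.07. These correlations are weak descriptions across genes, which share libraries and are not independent replicates. Groups did not overlap in CPM for 21 of the 59 members upward and 31 downward, against 40.1% and 40.2% of all genes tested.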

How the data were processed

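The authors deposited estimated counts per gene and log2(TPM + 1) values, 1 column per library; the submitters' processing notes name STAR, RSEM 1.3.1 and GRCh38, and neither annotation nor strand use is given in the sources used here. RSEM splits reads shared by similar genes, and 18 of 59 members had estimated counts that were not whole. Per the labels' protocols, a TruSeq kit and 1.5 µg of total RNA were used for each library. Counts were rounded, filtered with filterByExpr, scaled with TMM and tested with edgeR 4.0.16 (R 4.3.3; quasi-likelihood, robust, two-sided, no block, adjusted over 16395 genes). SE was taken as the absolute log2 fold change over the root of the F value. TPM came from undoing the log. On 5 simulated sets over 16395 genes, 200 genes were changed in each set. Of these, 55.2% of genes changed 1.25-fold and 88.8% of those changed 2-fold were recovered, and 6.55% of calls were false. In the data 78.4% of genes were called. Such rates depend on the share of genes changed, so they need not hold for the data. No 2 libraries of a group agreed within sampling noise (chi-square per degree of freedom 3.85 to 9.19). Alternatives used DESeq2 1.42.0, limma 3.58.1, other scalings and filters, and fits without each library. Members and lists were chosen with earlier results of these data known. Every member is named; values per library are given for called members changed at least 2-fold and for the highest and lowest called member of each role group; up to 2 highest and 2 lowest called genes of each partner list are named. Gene positions are from GENCODE 29 on GRCh38, which matched 59 members.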

Additional observations from a re-analysis of the deposited data

How the results depend on the processing

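Over 16 alternative settings, 876 of 943 member results kept their call, and 43 of the 59 members kept it in every setting, among them 13 of the 20 higher and 28 of the 30 lower. Library totals moved the median of all genes to -0.16 and upper-quartile factors to -0.14, by up to 0.142, and changes read relative to it. Both scalings gave 13 higher members instead of 20. For all genes the split was 5378 higher and 7479 lower with library totals and 5521 and 7389 with upper-quartile factors, against 6436 and 6418. ORC2 (-0.0124) and RRM1 (-0.00502) changed sign with library totals but were not called there (adjusted p = 0.847 and 0.935, edgeR).

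Medians for licensing, firing, fork, polymerase, nucleotide, chromatin and E2F with cyclin E were -0.17, -0.10, -0.48, -0.48, -1.09, -0.46 and -1.13 with library totals, and -0.16, -0.0882, -0.47, -0.46, -1.07, -0.45 and -1.12 with upper-quartile factors, so that firing reversed. With a filter of 5 CPM, which left out CCNE1, licensing stood at -0.14, firing at -0.0656 (reversed), fork at -0.44, polymerase at -0.44, chromatin at -0.43 and E2F at -1.1. Fork was -0.22 and E2F -0.66 with limma on log2(TPM + 1), for both gene sets, and -0.22 and -0.88 on log2(TPM + 0.1). Firing was 0.0694 with no filter. When each library was left out in turn, medians ranged from -0.0716 to 0.0149 for licensing (0.0149 without Myrrh replicate 2, reversed), 0.0124 to 0.098 for firing, -0.35 to -0.28 for fork, -0.38 to -0.30 for polymerase, -1.01 to -0.87 for nucleotide, -0.35 to -0.27 for chromatin and -1.0 to -0.89 for E2F. Higher members then numbered 16 to 20 and lower members 29 to 30. Members changed at least 2-fold numbered 12 to 13 then, and 10 to 17 over the other settings.

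Deviations of same-numbered libraries correlated at -0.07, 0.00 and 0.05, against -0.11 to 0.11 for differently numbered ones. As deviations from means of 3 libraries, these values cannot exclude a weak shared culture or batch by replicate number. With the replicate block, 21 members were higher and 30 lower, and all genes higher numbered 6390. Beyond CHAF1A, which became called, the block changed no member's call. Depth limits CCNE1 and E2F8 most. Small changes were recovered less often in simulated data, where far fewer genes changed than were called here.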
